A study of Mus musculus with 12 samples.

Results

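The report covers 9 histone variant genes of germ cell chromatin, chosen by Ensembl ID among the 20345 gene IDs of a mouse RNA-seq table. They are H2afx (ENSMUSG00000049932), H2afz (ENSMUSG00000037894), H2afv (ENSMUSG00000041126), H2afy (ENSMUSG00000015937), H3f3a (ENSMUSG00000060743), H3f3b (ENSMUSG00000016559), Hist1h2ba (ENSMUSG00000050799), Hils1 (ENSMUSG00000038994) and H1fnt (ENSMUSG00000048077). The list was given with these IDs and names, and the table itself holds IDs only. All 9 passed the filter on low values, which kept the 12246 genes that reached 1 RPKM in 2 or more columns. RPKM is a read count scaled to gene length in kilobases and to 1000000 sequenced reads.

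RNA recovered with MIWI, a PIWI protein that binds small RNAs in spermatocytes and round spermatids, and input RNA were sequenced from late spermatocytes after removal of ribosomal RNA. The genotypes were Miwi ADH/-, Miwi -/- and Miwi +/-. In the ADH allele an aspartate of the protein's RNA-cutting site is replaced by alanine, Miwi -/- cells lack the protein and give the background of the antibody, and all genotypes, the Miwi +/- comparator included, carry at least 1 null allele. The labels list 12 samples, 2 per genotype for IP and for input, while the table has 1 column per combination, so no replicate spread is known and no difference below has a test. The labels give no age or strain, and RNA came from testes or from sorted cells without saying which. Whether animals were pooled is not stated there. In such bulk RNA, fewer cells of a type and less RNA per cell cannot be told apart.

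Intervals below are exact 95% counting intervals of the whole reads behind the RPKM values. They compare these columns only, cover counting error only, and take each read as an independent molecule. The listed genes held 761525 reads in the Miwi -/- IP, the shallowest column, and 1725558 to 3918947 in the others. Read totals behind the RPKM values were 1.41, 0.557 and 0.786 in the Miwi ADH/-, -/- and +/- IPs, taking the Miwi +/- input as 1. The IPs, that of Miwi -/- most, thus had a smaller share of their reads in the listed genes than the inputs. A difference is counted where it reached 2-fold on the log2(RPKM + 1) scale, and the share of all 12246 genes counted alike is given beside it. The median gene was lower in each IP than in its input on this scale, by log2 values of -0.41 in Miwi ADH/-, -1.37 in Miwi -/- and -0.77 in Miwi +/-, so values relative to these medians are also given. The markers of the labelled cell type and the targeted gene were not analysed here, because the IDs could not be paired with names.

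Histone variants replace the standard core and linker histones at particular places and stages. In male germ cells H2AX is phosphorylated on the silenced X and Y chromosomes of spermatocytes, the testis H2B variant TH2B takes the place of most H2B, and H3.3 enters chromatin outside DNA replication. After meiosis, spermatid linker histones accompany the repackaging of chromatin before transition proteins and protamines take over. Hils1 and H1fnt encode such spermatid linker histones, and Hist1h2ba encodes TH2B. H2afz and H2afv encode the 2 forms of H2A.Z, H2afy encodes macroH2A1, and H3f3a and H3f3b encode the same H3.3 protein from separate genes.

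The promoters of the spermatid linker genes are shown because both were highest in the Miwi ADH/- input and lowest in the Miwi -/- input among the inputs, and that of Hist1h2ba because it was by far the most abundant of the 9 genes. The sequences are from RefSeq on build GRCm38.p6, whereas the submitters' processing notes name mm9, so their coordinates are not those of the reads. Each runs 5′ to 3′ from 250 bases before the RefSeq gene start to 50 bases after it. Capitals mark matches on either strand to the motif CCAAT, to TGACG (the half-site bound by CREB and CREM, factors of the cAMP response), to ATTTGCAT (the octamer of H2B genes) or to TATAAA.
Hist1h2ba (H2bc1 in RefSeq), chr13:23934107-23934406, minus strand: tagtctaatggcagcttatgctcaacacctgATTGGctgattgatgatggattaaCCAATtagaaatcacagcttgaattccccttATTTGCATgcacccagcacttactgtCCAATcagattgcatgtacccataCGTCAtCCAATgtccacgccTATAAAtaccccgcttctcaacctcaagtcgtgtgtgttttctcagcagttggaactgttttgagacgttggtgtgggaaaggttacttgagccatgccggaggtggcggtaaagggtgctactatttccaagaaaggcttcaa
Hils1, chr11:94967343-94967642, plus strand: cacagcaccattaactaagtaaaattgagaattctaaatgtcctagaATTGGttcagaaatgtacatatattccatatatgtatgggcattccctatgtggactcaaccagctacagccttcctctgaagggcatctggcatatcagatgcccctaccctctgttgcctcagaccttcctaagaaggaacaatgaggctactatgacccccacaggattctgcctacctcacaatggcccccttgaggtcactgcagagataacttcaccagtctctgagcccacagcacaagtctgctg
H1fnt (H1f7 in RefSeq), chr15:98257258-98257557, minus strand: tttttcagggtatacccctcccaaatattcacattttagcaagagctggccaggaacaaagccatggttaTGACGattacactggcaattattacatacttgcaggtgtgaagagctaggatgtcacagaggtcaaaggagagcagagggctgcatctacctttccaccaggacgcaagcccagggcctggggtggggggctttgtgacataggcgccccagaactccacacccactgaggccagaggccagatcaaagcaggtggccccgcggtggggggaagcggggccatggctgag

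The Hist1h2ba promoter held 4 CCAAT matches, 1 octamer, 1 TGACG and 1 TATAAA. H3f3b was the other gene of the set with an octamer, and its promoter also held 4 CCAAT, 2 TGACG and 1 TATAAA matches. H3f3a, which encodes the same protein, held 1 CCAAT and none of the others. The H1fnt promoter held 1 TGACG, at 180 bases before the start, and the Hils1 promoter 1 CCAAT, so no motif searched was shared by the linker genes. H2afz held 3 CCAAT matches, H2afv held 4, and H2afy held 1 TGACG. Of all 32851 promoters in the RefSeq table, 37.4% held CCAAT, 20.8% TGACG (the full site TGACGTCA included), 13.6% TATAAA and 1.74% the octamer. The full site, in 1.79% of them, was in none of the 8 promoters found; H2afx had no entry. GC content was 45.3% for Hist1h2ba, 46.7% for Hils1 and 55.7% for H1fnt, against 71.3% for H2afz, 74.0% for H3f3a and 74.3% for H2afy, with a median of 52.7% over all promoters. A match describes the letters only.

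Levels of the 9 genes ranged from 0.106 RPKM (H1fnt, Miwi -/- input) to 5438 RPKM (Hist1h2ba, Miwi ADH/- IP). Hist1h2ba had 5438 RPKM in the Miwi ADH/- IP, 883 in the Miwi -/- IP and 3042 in the Miwi +/- IP, and 2888, 3673 and 3290.4 RPKM in the inputs in the same genotype order. It ranked from 2 to 10 among all listed genes in every column and gave 82.7% to 92.5% of the summed RPKM of the 9 genes. The order over the columns ran Miwi ADH/- IP, Miwi -/- input, Miwi +/- input, Miwi +/- IP, Miwi ADH/- input and Miwi -/- IP, and every neighbouring pair differed beyond counting error. On the deposited scale the lowest column was thus the antibody background. The order depends on scaling. Median-of-ratios scaling divides each column by the median ratio of its genes to their geometric mean over the columns. Under it the log2 IP minus input difference of Hist1h2ba in Miwi -/- went from -2.06 to -0.12. In RefSeq this gene lies within a lncRNA, Gm33516; whether counting used strand is not stated, and reads of overlapping genes cannot then be told apart.

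H2afx stood at 195.8, 41.3 and 128.9 RPKM in the Miwi ADH/-, -/- and +/- IPs and at 129.2, 231.1 and 154.0 RPKM in the inputs. On the deposited scale its highest column was the Miwi -/- input, and its lowest the Miwi -/- IP. The Miwi ADH/- input and the Miwi +/- IP could not be separated on that scale (ratio 1.00, interval 0.917 to 1.10). This order depends on scaling too: the log2 IP minus input difference of H2afx in Miwi -/- went from -2.45 to -0.55 under median-of-ratios scaling.

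H3f3b was the other abundant gene, with 100.3, 64.2 and 126.7 RPKM in the Miwi ADH/-, -/- and +/- IPs and 208, 158 and 224 RPKM in the inputs. On the deposited scale all 3 inputs exceeded all 3 IPs. This order depends on scaling: the log2 IP minus input difference of H3f3b in Miwi -/- went from -1.29 to 0.63 under median-of-ratios scaling. H3f3a was lower throughout, with 11.95, 0.257 and 15.8 RPKM in the IPs and 40.6, 30.8 and 30.2 RPKM in the inputs. Its Miwi -/- IP value rests on 1 read. Because both H3.3 genes have close copies, including H3f3c and the pseudogenes H3f3a-ps1 and H3f3a-ps2 in RefSeq, and the handling of reads with several matches is not stated, their levels are uncertain.

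H2afz, the more abundant H2A.Z gene, had 31.9, 13.9 and 20.2 RPKM in the Miwi ADH/-, -/- and +/- IPs and 72.6, 55.3 and 53.9 RPKM in the inputs. On the deposited scale every input exceeded every IP. Under median-of-ratios scaling the log2 IP minus input difference of H2afz in Miwi -/- went from -1.92 to -0.06. For H2afv the IPs had 10.03, 0.541 and 15.1 RPKM and the inputs 15.9, 12.1 and 10.5 RPKM. Apart from the Miwi -/- IP, which rests on 3 reads, no neighbouring columns of H2afv differed beyond counting error. Some columns farther apart did: the Miwi ADH/- input was 1.51 times the Miwi +/- input (1.15 to 1.98). The Miwi +/- IP was 1.43 times its input (1.09 to 1.88), and the Miwi ADH/- IP 0.631 times its input (0.490 to 0.813). H2afy had 17.0, 9.26 and 23.4 RPKM in the IPs and 21.4, 52.9 and 51.8 RPKM in the inputs. On the deposited scale its Miwi ADH/- input lay close to the Miwi +/- IP and well below the other inputs.

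The linker genes varied most among the inputs. Hils1 had 18.6, 1.20 and 2.99 RPKM in the Miwi ADH/-, -/- and +/- IPs and 78.5, 1.95 and 31.4 RPKM in the inputs. H1fnt had 55.9, 0.542 and 16.3 RPKM in the IPs and 39.0, 0.106 and 12.2 RPKM in the inputs. For both, the Miwi ADH/- columns exceeded the Miwi +/- columns of the same kind and the Miwi -/- columns were at or near the bottom. Among the inputs the highest column was 40.4 times the lowest for Hils1 and 368 times for H1fnt. The lowest columns, both Miwi -/-, held 11 reads and 1 read in that order, so the size of these ranges is uncertain. For the other 7 genes it was 1.27 to 2.48 times, with a median of 1.81 over all kept genes. The Hils1 gene lies wholly within Sgca in RefSeq, so the limit given for Hist1h2ba on reads of overlapping genes holds for it too.

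**Figure D1:**
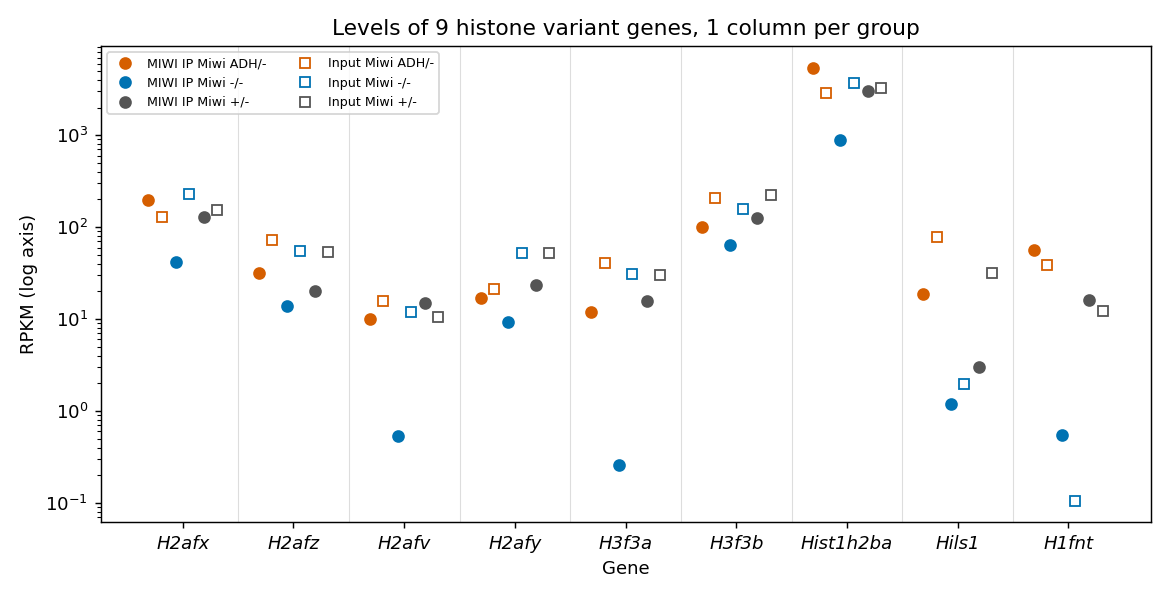
RPKM (log axis) of each gene in the 6 columns; filled circles are MIWI IPs and open squares are inputs, coloured by genotype, with 1 value per group and no error bar. Hist1h2ba lies far above the other genes, and the Miwi -/- inputs of Hils1 (1.95 RPKM) and H1fnt (0.106 RPKM) lie far below those of the other genotypes.

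The inputs address how the starting RNA differed where MIWI was catalytically mutant or absent. In the Miwi ADH/- input, Hils1 and H1fnt were at least 2-fold higher and H2afy at least 2-fold lower than in the Miwi +/- input, while the other 6 genes differed by less. Of all kept genes 7.8% were higher and 7.42% lower by that much. Hils1 had 78.5 RPKM in Miwi ADH/- and 31.4 RPKM in Miwi +/-, a ratio of 2.50 (interval 2.09 to 3.01) on 343 and 187 reads. H1fnt had 39.0 and 12.2 RPKM, a ratio of 3.204 (2.58 to 3.997) on 284 and 121 reads. Both genes were thus higher in the mutant, and 95.2% and 97.0% of all kept genes lay below their log2 differences.

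H2afy had 21.4 RPKM in the Miwi ADH/- input and 51.8 RPKM in the Miwi +/- input, a ratio of 0.412 (0.346 to 0.489). Only 3.52% of kept genes lay lower on the log2 difference. Its log2 difference of -1.24 became -0.99 under median-of-ratios scaling, just short of 2-fold. RefSeq places a lncRNA, Gm31485, partly over this gene.

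The remaining core variants moved little in the Miwi ADH/- input. Ratios to Miwi +/- were 1.35 (1.16 to 1.56) for H2afz, 1.51 (1.15 to 1.98) for H2afv and 1.35 (1.11 to 1.64) for H3f3a, so these 3 genes were higher beyond counting error. The ratio was 0.838 (0.773 to 0.909) for H2afx, 0.929 (0.874 to 0.987) for H3f3b and 0.878 (0.850 to 0.906) for Hist1h2ba. The median gene lay at -0.16 on the log2 scale, and under median-of-ratios scaling H3f3b (0.14) and Hist1h2ba (0.06) turned to the higher side.

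In the Miwi -/- input the linker genes went the other way. No gene of the set was at least 2-fold higher than in the Miwi +/- input, where 4.47% of all kept genes were, and 2 were lower by that much, as were 10.6% of all kept genes. Hils1 had 1.95 RPKM in Miwi -/- against 31.4 RPKM in Miwi +/-, which is 16.1-fold lower (8.80 to 32.8) on 11 and 187 reads. H1fnt had 0.106 RPKM in Miwi -/- against 12.2 RPKM in Miwi +/-, 115-fold lower with an interval of 20.2 to 4568 because a single read was left. Fewer than 1% of kept genes were lower: 0.915% lay below Hils1 and 0.776% below H1fnt. Of all kept genes, 233 (1.90%) were 2-fold or more higher in the Miwi ADH/- input and 2-fold or more lower in that of Miwi -/-, both set against the same Miwi +/- column, and Hils1 and H1fnt are among them.

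The core variants stayed within 2-fold of Miwi +/- in the Miwi -/- input. H2afx was the highest, at 231.1 RPKM in Miwi -/- and 154.0 RPKM in Miwi +/-, a ratio of 1.50 (1.41 to 1.60). H3f3b was the lowest of the 7, at 158 and 224 RPKM, a ratio of 0.705 (0.663 to 0.750). Hist1h2ba was 1.12 times its Miwi +/- level (1.09 to 1.15). For H2afz, H2afv, H2afy and H3f3a the ratios lay between 1.02 and 1.15 and their intervals included 1. The widest of these intervals, that of H3f3a on the lower side and of H2afv on the higher side, allow ratios down to 0.837 and up to 1.51.

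**Figure D2:**
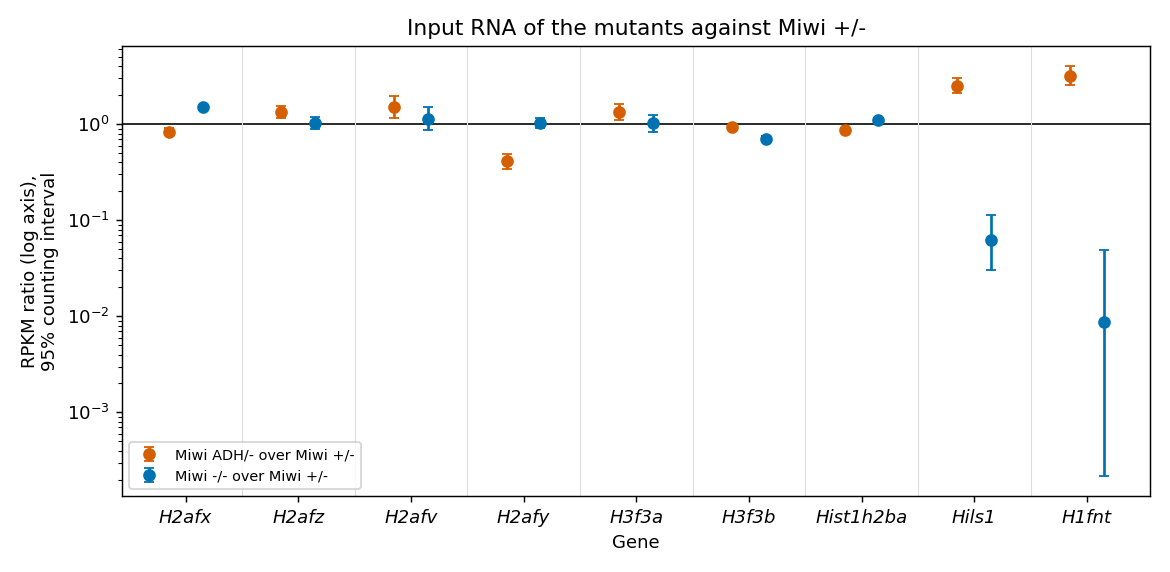
Ratio of input RPKM (log axis) in Miwi ADH/- and in Miwi -/- to Miwi +/- for each gene, with 95% counting intervals; the line marks equality. Hils1 and H1fnt lie above the line in Miwi ADH/- (2.50 and 3.204) and far below it in Miwi -/- (0.0620 and 0.00872), and H2afy lies at 0.412 in Miwi ADH/-.

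IP against input asks which of these RNAs were recovered with MIWI. In Miwi ADH/-, none of the 9 genes was at least 2-fold higher in the IP (4.83% of all kept genes were) and 4 were at least 2-fold lower, namely H2afz, H3f3a, H3f3b and Hils1 (25% of all kept genes). Hist1h2ba had 5438 RPKM in the IP and 2888 RPKM in the input, a ratio of 1.88 (1.83 to 1.94). H2afx had 195.8 and 129.2 RPKM, a ratio of 1.52 (1.41 to 1.63), and H1fnt had 55.9 and 39.0 RPKM, a ratio of 1.43 (1.25 to 1.65). These 3 genes were the ones above input, with 86.0% to 94.2% of kept genes below them. Relative to the median gene, Hist1h2ba (1.32) and H2afx (1.00) were at least 2-fold higher and only H3f3a (-1.28) and Hils1 (-1.61) at least 2-fold lower, against 12% and 13.4% of all kept genes. H2afv (-0.62) and H2afy (-0.31) lay below input on the deposited scale, and H2afy moved to 0.10 relative to the median.

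In the Miwi -/- background control, 7 of the 9 genes were at least 2-fold lower in the IP than in the input (60.9% of all kept genes) and none was higher (3.67%). The IP-to-input ratio was 0.240 (0.227 to 0.254) for Hist1h2ba, 0.179 (0.156 to 0.205) for H2afx, 0.251 (0.184 to 0.336) for H2afz and 0.175 (0.131 to 0.230) for H2afy. The lowest were H3f3a, 120-fold below input (21.3 to 4756) on 1 IP read against 204 input reads, and H2afv, 22.3-fold below input (7.45 to 109.9) on 3 against 114 reads. H3f3b was 2.46-fold lower (2.21 to 2.75), but relative to the median gene it was at 0.09, and median-of-ratios scaling put it at 0.63, so its direction turned with the scaling. Under that scaling H3f3a (-3.67) and H2afv (-1.91) alone remained at least 2-fold lower. Relative to the median gene, H2afx, H2afv, H2afy and H3f3a were at least 2-fold lower (25% of all kept genes), with H3f3a at -3.29 the lowest, and H1fnt was at least 2-fold higher (23.6%). Hils1 and H1fnt had 4 and 3 IP reads and 11 and 1 input reads, and their intervals included equality.

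In Miwi +/-, none of the genes was at least 2-fold higher in the IP (4.24% of all kept genes were) and H2afz, H2afy and Hils1 were at least 2-fold lower (40.6%). H2afv had 15.1 RPKM in the IP and 10.5 RPKM in the input, a ratio of 1.43 (1.09 to 1.88). H1fnt had 16.3 and 12.2 RPKM, a ratio of 1.34 (1.03 to 1.73). They were the only members above input on the deposited scale, and both exceeded the median gene by at least 2-fold (1.25 and 1.16, as 15.4% of all kept genes did). Hils1 had 2.99 RPKM in the IP and 31.4 RPKM in the input, 10.5-fold lower (6.10 to 19.6), and 1.81% of kept genes lay below it. It was also the 1 member at least 2-fold below the median gene (15.5% of all kept genes). Hist1h2ba stood at a ratio of 0.925 (0.896 to 0.954) and H2afx at 0.837 (0.773 to 0.906), and both turned to the higher side relative to the median gene (0.66 and 0.51). The H3.3 genes were near the median gene, at -0.12 for H3f3a and -0.05 for H3f3b.

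**Figure D3:**
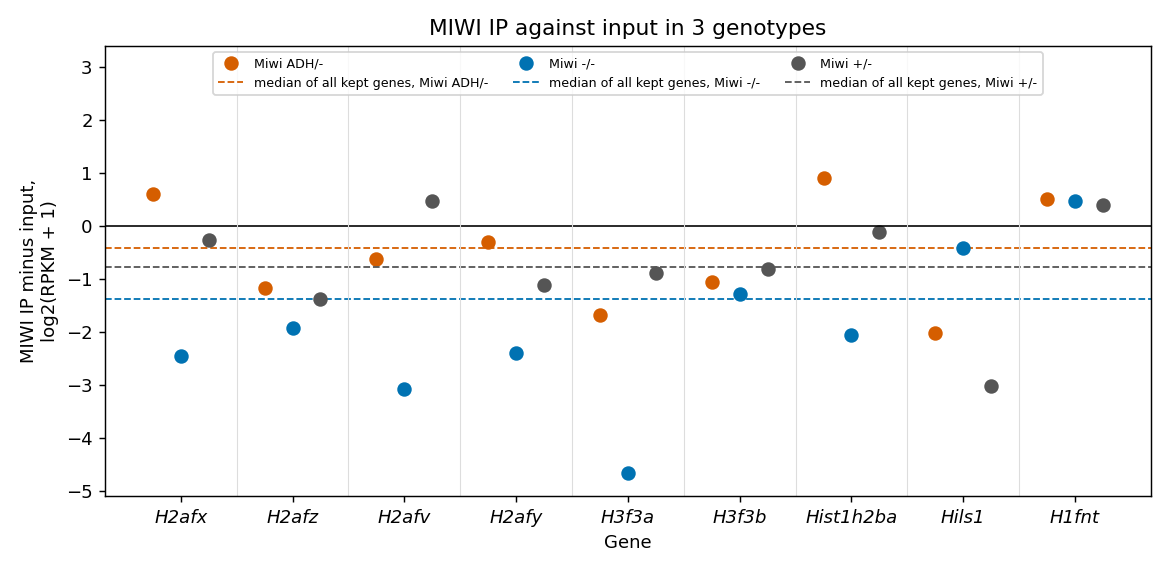
MIWI IP minus input on the log2(RPKM + 1) scale for each gene in 3 genotypes; dashed lines mark the median of all 12246 kept genes in each genotype (-0.41, -1.37 and -0.77 in Miwi ADH/-, -/- and +/-). Hist1h2ba, H2afx and H1fnt lie above the Miwi ADH/- median, while Hils1 lies far below the medians of Miwi ADH/- and Miwi +/-.

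Enrichment over the control divides the IP-to-input ratio of a genotype by that of Miwi -/-. Both enrichments use the same Miwi -/- columns and are given side by side. In Miwi ADH/-, 5 of the 9 genes were at least 2-fold more enriched than in Miwi -/- (51.9% of all kept genes) and 1 less (7.3%). In Miwi +/- the numbers were also 5 (39.3%) and 1 (9.56%), with the same genes: H2afx, H2afv, H2afy, H3f3a and Hist1h2ba above the control, and Hils1 below it. Relative to the median gene of each comparison, the same 5 genes were at least 2-fold higher in Miwi ADH/- (20.1% of all kept genes) with Hils1 and H1fnt lower (21.7%), and 4 were in Miwi +/- (21.4%) with Hils1 lower (20.1%), H2afy being the gene that fell short.

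H3f3b and H2afz, with 412 and 52 reads in the Miwi -/- IP, lay below the median gene of each comparison and are given further below. Among the other genes with enough reads in the control, Hist1h2ba had a ratio of ratios of 7.83 (7.36 to 8.34) in Miwi ADH/- and 3.85 (3.61 to 4.10) in Miwi +/-. H2afx had 8.47 (7.25 to 9.92) in Miwi ADH/- and 4.68 (3.99 to 5.49) in Miwi +/-. H2afy had 4.56 (3.23 to 6.47) and 2.58 (1.87 to 3.60). All 3 lay above the median gene of each comparison, which was at log2 1.06 for Miwi ADH/- and 0.67 for Miwi +/-. H2afy was 0.61 above that median in Miwi +/-. Under median-of-ratios scaling H2afy was short of 2-fold in both genotypes (log2 differences of 0.67 in Miwi ADH/- and 0.31 in Miwi +/-), and Hist1h2ba was short of it in Miwi +/- (0.89). Hist1h2ba in Miwi ADH/- went from 2.97 to 1.47 under that scaling. H2afx went from 3.05 to 1.58 in Miwi ADH/- and from 2.20 to 1.17 in Miwi +/-. The counting intervals do not cover this dependence on scaling.

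H3f3a had 35.3 (6.05 to 1411) in Miwi ADH/- and 62.9 (10.7 to 2524) in Miwi +/-. H2afv had 14.1 (4.47 to 70.5) in Miwi ADH/- and 31.9 (10.1 to 160) in Miwi +/-. Their size rests on 1 and 3 reads in the Miwi -/- IP, and in Miwi ADH/- their intervals include the values of H2afx and Hist1h2ba, so these genes have no set order there. H3f3b, the other H3.3 gene, had only 1.19 (1.04 to 1.35) in Miwi ADH/- and 1.39 (1.22 to 1.59) in Miwi +/-. H2afz, the other H2A.Z gene, had 1.75 (1.25 to 2.48) and 1.496 (1.03 to 2.19). Both lay below the median gene of each comparison, so their direction depends on the scaling. For Hils1 the values were 0.384 (0.111 to 1.68) in Miwi ADH/- and 0.154 (0.0391 to 0.757) in Miwi +/-. For H1fnt they were 0.281 (0.00533 to 3.51) and 0.262 (0.00494 to 3.32). With so few reads in both Miwi -/- columns, no enrichment of the linker genes over the control could be measured in either direction, apart from the interval of Hils1 in Miwi +/-, which lay below 1.

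**Figure D4:**
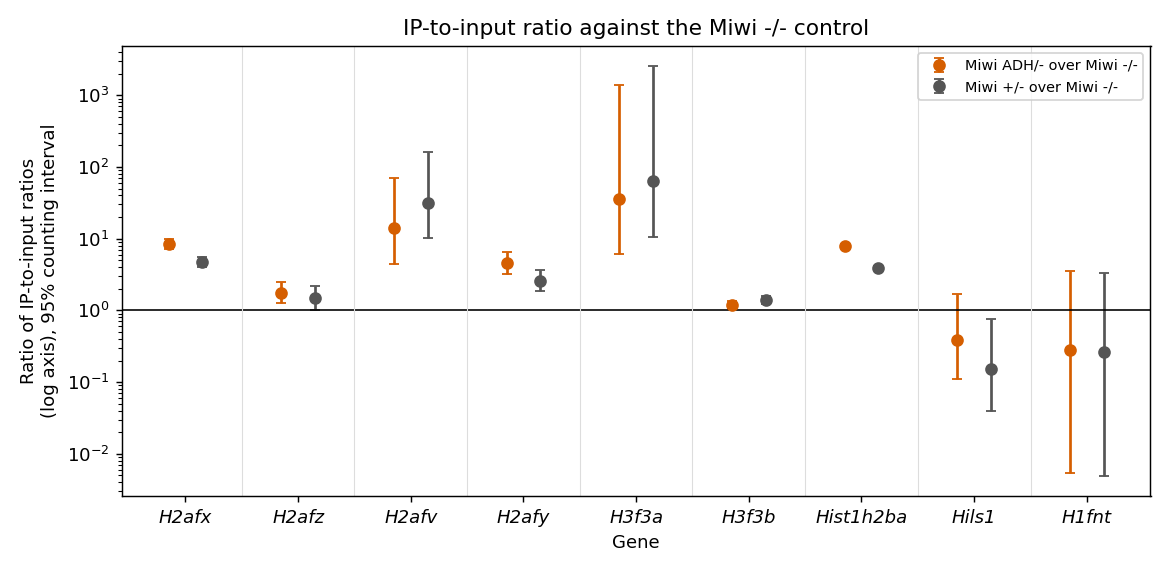
Ratio of the IP-to-input ratio in Miwi ADH/- and in Miwi +/- to that in Miwi -/- (log axis), with 95% counting intervals; the line marks equality. H2afx, H2afv, H2afy, H3f3a and Hist1h2ba lie furthest above the line in both genotypes, with wide intervals for H2afv and H3f3a. H2afz and H3f3b also lie above it, but closer. The intervals of H1fnt, and that of Hils1 in Miwi ADH/-, include the line.

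Set against Miwi +/-, enrichment in Miwi ADH/- was at least 2-fold higher for Hist1h2ba and Hils1 (20.5% of all kept genes) and at least 2-fold lower for H2afv (7.56%). The ratio of IP-to-input ratios was 2.04 (1.95 to 2.12) for Hist1h2ba and 2.49 (1.39 to 4.79) for Hils1. It was 0.441 (0.303 to 0.642) for H2afv and 0.561 (0.395 to 0.797) for H3f3a. H2afx followed Hist1h2ba at 1.81 (1.62 to 2.02), and H2afy had 1.77 (1.37 to 2.29). For H1fnt (1.07, 0.7997 to 1.44) and H2afz (1.17, 0.892 to 1.54) the interval included 1. The median gene lay at 0.38, and relative to it none of the 9 was at least 2-fold higher, where 10.6% of all kept genes were, and H2afv and H3f3a (-1.47 and -1.18) were at least 2-fold lower, where 13.4% were.

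Ratios between genes of a pair within a column do not depend on how columns are scaled. The 3 pairs were chosen by function with the values known: the H2A.Z genes, the H3.3 genes and the spermatid linker genes. H2afv was 0.315 times H2afz in the Miwi ADH/- IP (0.256 to 0.385), 0.0390 times in the Miwi -/- IP (0.00779 to 0.120) and 0.745 times in the Miwi +/- IP (0.569 to 0.978). In the inputs the ratio was 0.219, 0.218 and 0.196. Relative to H2afz, H2afv was thus 3.81-fold higher in the IP than in the input of Miwi +/- (2.67 to 5.43), 1.44-fold higher in Miwi ADH/- (1.06 to 1.94) and 5.60-fold lower in Miwi -/- (1.75 to 28.5). Between inputs no change of this ratio exceeded counting error.

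H3f3a was 0.119, 0.00400 and 0.125 times H3f3b in the Miwi ADH/-, -/- and +/- IPs, and 0.195, 0.195 and 0.135 times in the inputs. In both mutant inputs the ratio was 1.45 times that of the Miwi +/- input, with intervals of 1.18 to 1.78. Both values are set against the same Miwi +/- column and cover counting error only. Between the Miwi +/- IP and its input the ratio did not change beyond counting error (0.928, 0.708 to 1.21), and in Miwi ADH/- it was 1.64-fold lower in the IP (1.29 to 2.09). In Miwi -/- it was 48.6-fold lower in the IP (8.57 to 1935), on the 1 read of H3f3a.

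H1fnt and Hils1 parted in the IPs. H1fnt was 3.002 times Hils1 in the Miwi ADH/- IP (2.53 to 3.59) and 5.45 times in the Miwi +/- IP (3.13 to 10.2), but 0.497 times in the Miwi ADH/- input (0.423 to 0.583) and 0.388 times in the Miwi +/- input (0.306 to 0.491). The IP thus held 6.04-fold more H1fnt relative to Hils1 than the input in Miwi ADH/- (4.75 to 7.67) and 14.0-fold more in Miwi +/- (7.57 to 27.5). In the Miwi -/- background the same quotient was 8.25 with an interval of 0.439 to 471, so whether MIWI is needed for it could not be read from these columns. Between the Miwi ADH/- and Miwi +/- inputs the ratio of the linker genes did not differ beyond counting error (1.28, 0.961 to 1.71). In the Miwi -/- input it was 7.12-fold lower than in the Miwi +/- input (1.01 to 309) on 1 read of H1fnt and 11 of Hils1.

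**Figure D5:**
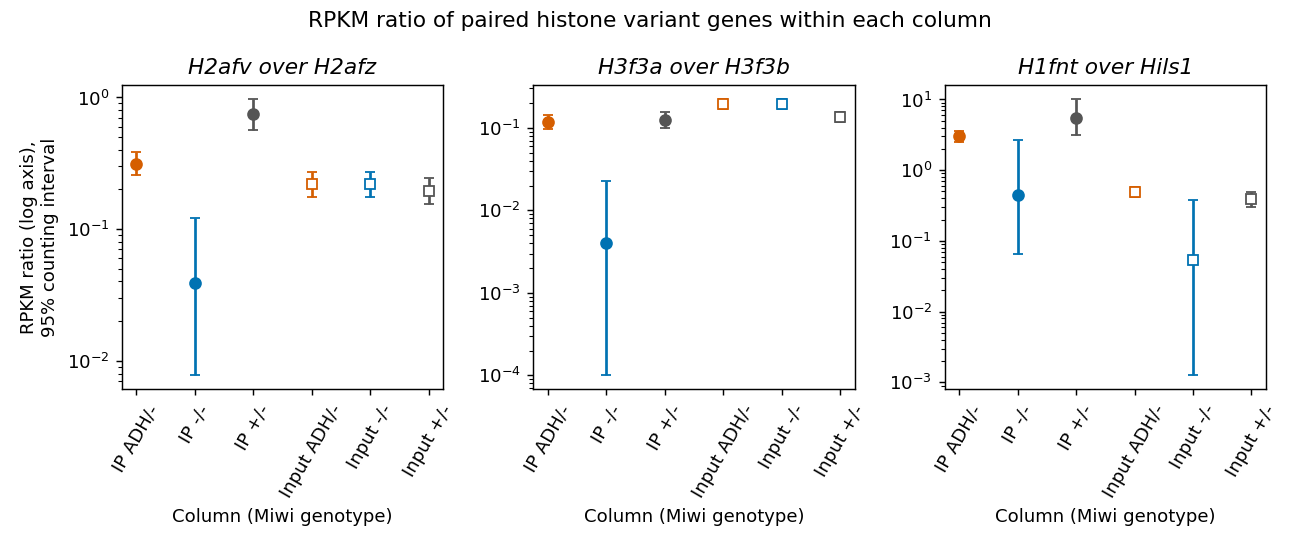
RPKM ratio of H2afv to H2afz, of H3f3a to H3f3b and of H1fnt to Hils1 in each column (log axes), with 95% counting intervals; circles are IPs and squares inputs. The H2afv to H2afz ratio is highest in the Miwi +/- IP (0.745), and H1fnt exceeds Hils1 in the Miwi ADH/- and Miwi +/- IPs (3.002 and 5.45) but in none of the inputs.

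Profiles were compared by the root mean square distance of log2(RPKM + 1) values over the 6 columns, each gene centred on its mean. The closest pair was H2afx and Hist1h2ba, at 0.24, followed by H2afz and H3f3b at 0.40 and H2afy and H3f3b at 0.51. H3f3a was closest to H2afv (0.69) and farther from H3f3b (1.16). Hils1 and H1fnt were closer to each other (1.40) than Hils1 was to any core variant, the nearest being H2afz at 1.48. The largest distance was that of H2afy and H1fnt, at 2.42. These distances describe 6 columns without replicates. For H3f3a, H2afv, Hils1 and H1fnt they include a Miwi -/- IP value that rests on 1 to 4 reads. How far such values set the distances was not tested.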

How the data were processed

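RNA-seq of MIWI IPs and inputs from late spermatocytes was used as a table of RPKM values, which the authors deposited with 1 column per group. Per the file headers RPKM is named for the Miwi +/- columns only, and the same unit was assumed for the others, whose values step alike. Per the submitters' processing notes, TopHat, Bowtie and build mm9 were used. The sources used here give neither the counting tool nor the annotation.

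Whole reads were recovered from the steps of the RPKM values: relative column depths came from the commonest ratio of low values, and each gene's reads are the smallest whole numbers that give its values within 1e-04 reads plus 1e-06 of the number. This held for 100% of the 17452 genes above 0 in several columns; the 2893 genes above 0 in a single column were taken as 1 read. With 2 columns such a match can arise by chance.

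Differences were taken on log2(RPKM + 1) for 8 comparisons. No model across replicates could be run on 1 column per group, so none was. Intervals are exact (Clopper-Pearson for ratios, conditional odds ratio for ratios of ratios; scipy 1.17.1). The procedure was tested on simulated data. The 9 genes and the named lists were chosen with earlier results of these data known, and all 9 are named. The reference table matched 0 of the IDs, so lists of chaperones, other variants and cell type markers gave no values, and likeness was computed among the 9 genes only. Promoters were matched by name.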

Additional observations from a re-analysis of the deposited data

Results flagged for a closer look

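Hils1 and H1fnt were picked out because their inputs moved in opposite directions in the mutants, each by at least 2-fold. The log2 difference from Miwi +/- was 1.30 in Miwi ADH/- and -3.46 in Miwi -/- for Hils1, and 1.60 in Miwi ADH/- and -3.57 in Miwi -/- for H1fnt. Both differences use the same Miwi +/- column, and the difference between the mutants was not tested, with 1 column per group. As log2 ratios of reads without a pseudocount, the Miwi -/- values were -4.01 for Hils1 and -6.84 for H1fnt, on 11 reads and 1 read.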

How the results depend on the processing

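No paired analysis was possible because the columns carry no replicate number, and for the same reason no replicate was left out. Moves of the 72 differences of single genes were judged against the distance from the middle to an end of each log2 counting interval. With a pseudocount of 0.1, with recovered reads or without the filter, none moved further than that. The distance is wide where reads are few, so the size of such differences still depended on the pseudocount. In the Miwi -/- input H1fnt stood at -3.57, at -5.90 with a pseudocount of 0.1 and at -6.84 with recovered reads. H3f3a in the Miwi -/- IP minus input stood at -4.66, -6.44 and -6.905 in the same order. Median-of-ratios scaling moved 42 of the 72 differences further than this distance to the interval end, and values relative to the median gene moved 38. Beyond these, each moved 1 more that far, a difference of at least 2-fold whose sign changed. In all, the sign changed for 16 and 13 of the 72 differences in that order. Of these, 1 had been at least 2-fold, H3f3b in Miwi -/- (IP minus input -1.29), which came to 0.63 and 0.086. The others were smaller as deposited, among them H3f3b and H2afz in the enrichment of Miwi ADH/- over Miwi -/- (0.24 and 0.76, to -1.24 and -0.67 under median-of-ratios scaling), and in the IP H2afx and Hist1h2ba of Miwi +/- (-0.26 and -0.11, to 0.62 and 0.77) and Hils1 of Miwi -/- (-0.42, to 0.81). A pseudocount of 0.1 and recovered reads each turned 1 sign, that of H1fnt in the enrichment of Miwi ADH/- over Miwi -/- (0.03, to -1.12 and -1.83).

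Among the 9 genes, median-of-ratios scaling gave 2 higher and 2 lower in the IP of Miwi ADH/- (0 and 4 as deposited), 1 and 2 in Miwi -/- (0 and 7) and 2 and 1 in Miwi +/- (0 and 3). It left 0 lower in the Miwi ADH/- input (1), 2 lower in the enrichment of Miwi ADH/- over Miwi -/- (1), 3 higher in that of Miwi +/- over Miwi -/- (5), and 0 higher and 2 lower in that of Miwi ADH/- over Miwi +/- (2 and 1). Relative to the median gene the IP numbers were 2 and 2, 1 and 4, and 2 and 1 in the same genotypes, with 2 lower for Miwi ADH/- over Miwi -/-, and 0 higher and 2 lower for Miwi ADH/- over Miwi +/-. A pseudocount of 0.1 and recovered reads each gave 1 higher in the Miwi -/- IP and 2 lower in each enrichment over Miwi -/-; the added gene was H1fnt, with 3 IP reads and 1 input read there.

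Over all kept genes, the numbers higher and lower in the IP were 591 and 3057 in Miwi ADH/- as deposited, 1189 and 1740 under median-of-ratios scaling and 1472 and 1640 relative to the median. In Miwi -/- they were 449 and 7463, 2518 and 3782, and 2885 and 3066, and in Miwi +/- 519 and 4976, 1583 and 2086, and 1890 and 1894. For enrichment of Miwi ADH/- over Miwi -/- they were 6357 and 894, 3311 and 2395, and 2463 and 2655; for Miwi +/- over Miwi -/- the lower genes were 1171, 2357 and 2466 and the higher genes 4815 as deposited and 2617 relative to the median; for Miwi ADH/- over Miwi +/- they were 2509 and 926, 1437 and 1441, and 1303 and 1642. Genes lower in the Miwi ADH/- input were 909, 346 and 546. A pseudocount of 0.1 gave 991, 695 and 841 genes higher in the IPs of Miwi ADH/-, -/- and +/-, 1642 lower in the Miwi ADH/- input, 977 higher in the Miwi -/- input (547 as deposited) and 1523 less enriched in Miwi ADH/- than in Miwi +/-. Without the filter, over 20345 genes, 730 were higher in the Miwi -/- IP, 1522 less enriched in Miwi ADH/- than in Miwi -/- and 1489 less than in Miwi +/-. Recovered reads leave out genes with 0 reads in a column compared. They gave 997 of 11551 genes higher in the Miwi ADH/- IP, 1649 of 11908 lower in the Miwi ADH/- input and 888 of 11550 higher in the Miwi -/- input. Depth limits H3f3a, H2afv, Hils1 and H1fnt, which had 1 to 4 reads in the Miwi -/- IP.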
